A study of Mus musculus with 3 samples.

Results

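The 7 globin genes counted in the E14.5 mouse soft palate are described here: *Hba-x*, *Hba-a1* and *Hba-a2* of the alpha-type locus and *Hbb-y*, *Hbb-bh1*, *Hbb-bs* and *Hbb-bt* of the beta-type locus. They were chosen by symbol and are 7 of the 32285 genes in the count tables. Their make-up was read in globin-rich barcodes, those in which the 7 genes gave at least 30% of the unique molecular identifiers (UMIs, which count each captured transcript once). These were 1384 of 15573 cell barcodes. The tissue came from C57BL/6 embryos in 2 control libraries, labelled only as control, and 1 library labelled Osr2-Cre;Alk5fl/fl, in which *Tgfbr1* (older symbol *Alk5*), a receptor for TGF-β, is deleted. *Osr2-Cre* is active in palatal mesenchyme. How many embryos went into each library is not given in the sources used here, and the single mutant library allows no test between genotypes.

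Hemoglobin is a tetramer of alpha-type and beta-type chains, and the genes of each locus are used in turn during development. The first red cells arise in the yolk sac, enter the circulation with their nuclei and use *Hba-x* (ζ), *Hbb-y* (εy) and *Hbb-bh1* (βh1) along with adult alpha chains. Red cells made later in the fetal liver lose their nuclei and use *Hba-a1* and *Hba-a2* with *Hbb-bs* and *Hbb-bt*, the adult beta pair of the C57BL/6 haplotype. Both generations circulate together in mid-gestation, and blood is carried into any dissected tissue.

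In GRCm38, the genes of the alpha-type locus lie on the plus strand of chromosome 11, with *Hba-x* at chr11:32276400-32278116, *Hba-a1* at chr11:32283511-32284465 and *Hba-a2* at chr11:32296489-32297298. The beta-type genes lie on the minus strand of chromosome 7, with *Hbb-y* at chr7:103851749-103853216, *Hbb-bh1* at chr7:103841637-103843164, *Hbb-bs* at chr7:103826534-103828096 and *Hbb-bt* at chr7:103812524-103813996. Promoter sequences were found in RefSeq (GRCm38.p6) for 6 of the 7 genes, and 4 are shown because their genes separate the barcodes described next. Each run holds the 110 bases before the RefSeq start, 5′ to 3′ on the strand of the gene. The gene spans above are from GENCODE, whose starts for these 4 genes lie farther upstream. The *Hba-x* and *Hbb-bs* windows thus fall inside those spans, and the *Hbb-bt* and *Hbb-y* windows do in part. Capitals mark, on either strand, the box CACCC that erythroid factors of the Klf family bind, the box CCAAT found at many promoters, the TATA-like words TATAA and also ATAAA, and the GATA words AGATAA or else TGATAA. The TATA-like words overlap by 4 bases in *Hbb-bt* and *Hba-x*.
Hbb-y, minus strand, chr7:103853208-103853317: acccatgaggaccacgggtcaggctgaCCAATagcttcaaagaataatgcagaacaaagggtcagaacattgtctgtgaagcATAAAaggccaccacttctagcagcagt
Hba-x, plus strand, chr11:32276490-32276599: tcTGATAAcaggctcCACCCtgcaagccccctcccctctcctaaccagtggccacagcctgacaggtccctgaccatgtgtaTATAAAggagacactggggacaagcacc
Hbb-bs, minus strand, chr7:103827929-103828038: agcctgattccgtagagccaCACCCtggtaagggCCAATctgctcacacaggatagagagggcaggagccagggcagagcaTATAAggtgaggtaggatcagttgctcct
Hbb-bt, minus strand, chr7:103813924-103814033: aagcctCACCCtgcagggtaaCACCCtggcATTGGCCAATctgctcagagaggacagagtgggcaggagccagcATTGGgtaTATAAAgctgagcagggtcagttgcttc

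Of 32851 RefSeq promoters, the same window held CACCC in 29.6%, CCAAT in 20.2%, ATAAA in 18.9%, TATAA in 10.9%, AGATAA in 3.99% and TGATAA in 3.03%, on either strand. The *Hbb-bs* and *Hbb-bt* windows were identical at 85 of 114 aligned positions, and *Hbb-bs* and *Hbb-y* at 70 of 127. The windows of *Hba-a1* and *Hba-a2*, not shown, were identical at 107 of 113. At the other end of the gene, which the 3′ assay reads, the last 300 transcript bases of *Hba-a1* and *Hba-a2* shared an unbroken identical stretch of 161 bases, and those of *Hbb-bs* and *Hbb-bt* one of 140. Reads from such stretches cannot be given to 1 gene. The levels of these 4 genes are therefore uncertain, also in comparisons between libraries, and the ratios within each pair were compared between the classes of a library.

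The libraries held 2816, 4067 and 8690 barcodes for control 1, control 2 and the mutant, with 22624711, 27814907 and 63505144 UMIs. The palatal mesenchymal marker class took 63.9%, 67.2% and 59.8% of the barcodes that passed a filter of 500 genes and 10% mitochondrial UMIs and were not globin-rich. In that class *Tgfbr1* measured 55.7, 61.3 and 48.7 CPM (counts per 1000000 UMIs), and since the 3′ tag need not lie in the deleted part, this does not check the deletion. The library pairs shared 18, 34 and 49 barcode sequences, and at most 2 barcodes were globin-rich in both libraries of a pair.

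Globin UMIs made up a similar part of every library, 740057 UMIs or 3.27% in control 1, 780709 or 2.81% in control 2 and 1697537 or 2.67% in the mutant. They were concentrated in the globin-rich barcodes, which held 88.2%, 95.8% and 94.4% of them. Those barcodes numbered 616 of 2816 in control 1 (21.9%, 95% Clopper-Pearson interval 20.4 to 23.4), 222 of 4067 in control 2 (5.46%, 4.78 to 6.20) and 546 of 8690 in the mutant (6.28%, 5.78 to 6.81). All intervals here cover counting error only. Just inside the 30% limit, the lowest globin shares were 30.3%, 31.0% and 31.1%, and just outside it the highest were 29.91%, 29.96% and 29.86%.

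Control 1 stood apart from the other libraries in what its globin-rich barcodes were. In control 1, 542 of the 616 had a globin share of 30 to 60% with a median of 693 UMIs, and 71 had a share of at least 80% with a median of 7290 UMIs. In control 2, 206 of 222 had a share of at least 80%, and in the mutant 465 of 546. A limit of 50% made 2.77% of barcodes globin-rich in control 1, against 5.31% in control 2 and 6.02% in the mutant, so that control 1 moved from the highest to the lowest share. Some ratios of its classes are given for both ranges of globin share, and other values of control 1 pool them unless stated.

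**Figure D1:**
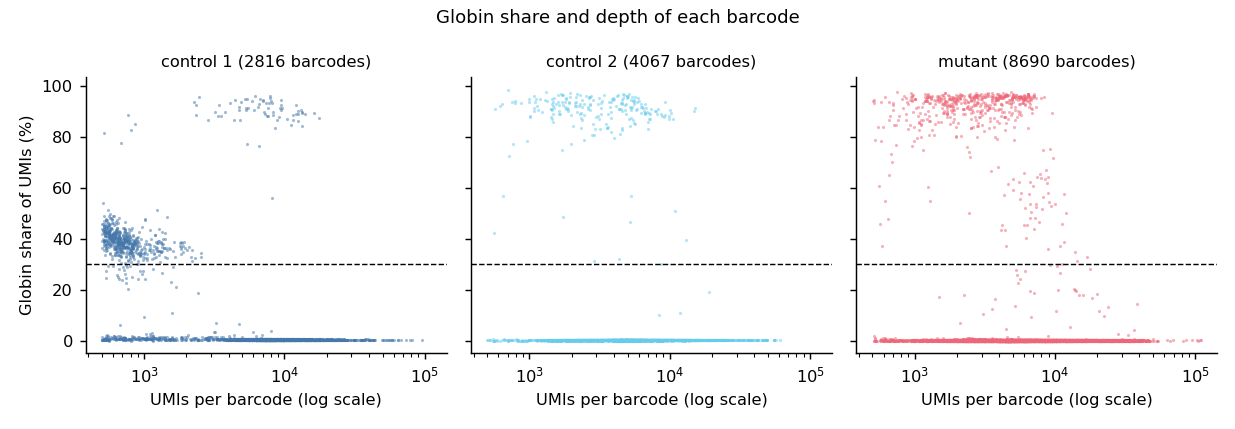
Globin share of the UMIs of each barcode (%, vertical axis) against its UMIs (log scale, horizontal axis) in control 1, control 2 and the mutant; each point is 1 barcode and the dashed line is the 30% limit. Control 1 has a group of 542 barcodes between 30 and 60% with a median of 693 UMIs, where control 2 has 9 barcodes and the mutant 42.

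Non-globin erythroid genes were higher in the globin-rich barcodes, as a check of what these barcodes are. *Alas2*, the first enzyme of heme synthesis in red cells, stood at 929, 743 and 484 CPM in the globin-rich barcodes, in the order control 1, control 2 and mutant used throughout, and at 5.13, 2.67 and 1.59 CPM in the other barcodes. *Car2*, a carbonic anhydrase of red cells, stood at 201, 297 and 190 CPM against 6.24, 5.67 and 2.40. Of the 10 erythroid markers other than globins, 9 were matched and 4 reached 20 UMIs in the globin-rich barcodes of every library, all 4 higher there in each library. The early erythroid factors *Klf1* and *Gata1* had at most 20 and 2 UMIs in the globin-rich barcodes of a library. Among all 510 other genes with 20 such UMIs in every library, 9.8% were higher in the globin-rich barcodes in all 3 libraries. The globin-rich barcodes also held RNA of *Col1a1*, a collagen gene. Per 1000000 non-globin UMIs it stood at 422, 379 and 372 in those of at least 80% globin. At 30 to 60% globin it stood at 624, 1332 and 1318, and in barcodes under 1% globin at 1190, 1328 and 1414. How far RNA of other cells enters the non-globin levels of globin-rich barcodes was not tested.

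The globin-rich barcodes fell into a pair of classes by their beta-type genes. The share of beta-type UMIs from *Hbb-y* and *Hbb-bh1* was under 10% in 487, 199 and 389 barcodes, and at least 80% in 124, 21 and 153. Only 5, 2 and 4 barcodes lay between. A boundary at 50% gave 129, 23 and 156 embryonic-type barcodes and 487, 199 and 390 adult-type barcodes. In the embryonic-type barcodes the median embryonic share of beta-type UMIs was 88.1%, 87.3% and 89.6%, and in the adult-type ones it was 0.952%, 0% and 0%. When every barcode was thinned to 100 globin UMIs, which all 1384 had, the numbers in each class were the same. With so few barcodes between 10 and 80%, thinning could hardly change them, so that this is no check of the classes.

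**Figure D2:**
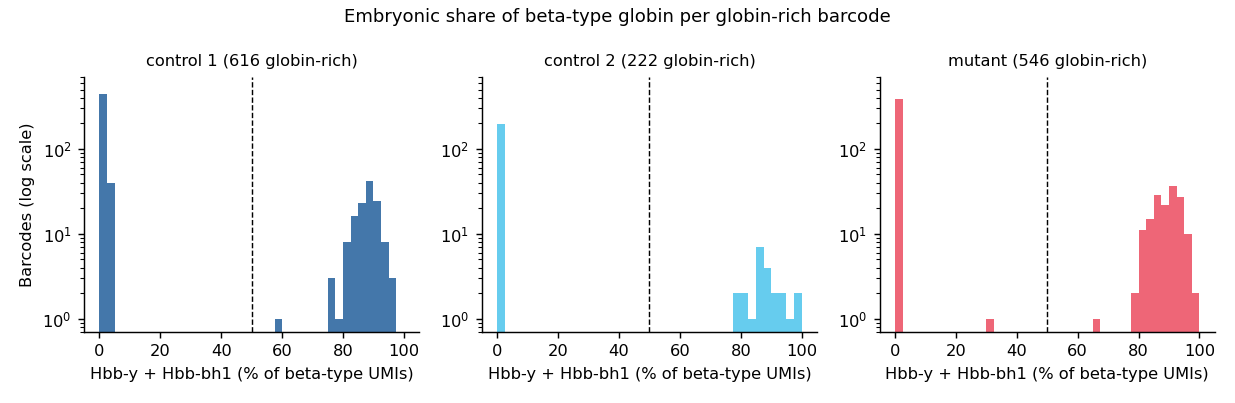
Number of globin-rich barcodes (log scale, vertical axis) by the share of their beta-type UMIs from *Hbb-y* and *Hbb-bh1* (%, horizontal axis, bins of 2.5%) in each library; the dashed line marks 50%. The barcodes stand at either end, with 5, 2 and 4 between 10 and 80% in control 1, control 2 and the mutant.

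The alpha-type locus was not used to set this boundary, and *Hba-x* separated the same barcodes. All 129, 23 and 156 embryonic-type barcodes had at least 1 *Hba-x* UMI, while 436 of 487, 194 of 199 and 383 of 390 adult-type barcodes had none. *Hba-x* gave 10.4%, 8.41% and 8.34% of alpha-type UMIs in the embryonic-type barcodes, and 0.0237%, 0.00197% and 0.00374% in the adult-type ones. The classes overlapped little: the highest *Hba-x* share of an adult-type barcode was 1.65%, 0.271% and 1.30%, and the lowest of an embryonic-type barcode was 1.54%, 1.16% and 0.926%.

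*Hbb-y* was the leading globin of the embryonic-type barcodes. It gave 48.5%, 44.0% and 51.3% of their globin UMIs, with medians of 294, 841 and 1114 UMIs a barcode. In adult-type barcodes its medians were 2, 0 and 0 UMIs, and it gave 0.195%, 0.00764% and 0.0444% of globin UMIs. *Hbb-bh1*, the other embryonic beta-type gene, gave 0.445%, 0.268% and 0.259% of the globin UMIs of embryonic-type barcodes, so that *Hbb-y* UMIs outnumbered *Hbb-bh1* UMIs 109-fold, 164-fold and 198-fold. In embryonic-type barcodes of at least 80% globin it was 457-fold, 176-fold and 242-fold. *Hbb-bh1* was counted in 85.3%, 82.6% and 54.5% of embryonic-type barcodes and in 0.616%, 1.01% and 1.28% of adult-type barcodes.

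The adult alpha genes were abundant in both classes. In embryonic-type barcodes *Hba-a1* and *Hba-a2* gave 25.4% and 14.3% of globin UMIs in control 1, 36.7% and 8.13% in control 2, and 24.1% and 14.1% in the mutant. Adult-type barcodes had 29.5% and 17.5%, 39.9% and 12.3%, and 23.1% and 20.02%. The ratio of *Hba-a1* to *Hba-a2* in embryonic-type and adult-type barcodes was 1.77 and 1.68 in control 1, 4.52 and 3.26 in control 2, and 1.71 and 1.15 in the mutant. Pooled over globin shares, it varied more between libraries than between classes. In control 1 at 30 to 60% globin, however, it was 1.65 in embryonic-type and 7.86 in adult-type barcodes.

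Adult beta genes were also counted in embryonic-type barcodes. *Hbb-bs* gave 3.64%, 4.20% and 3.74% of their globin UMIs by library, and *Hbb-bt* 3.11%, 2.56% and 3.01%. In adult-type barcodes the shares were 39.5%, 37.9% and 43.0% for *Hbb-bs* and 13.2%, 9.88% and 13.8% for *Hbb-bt*. The median embryonic-type barcode held 23, 86 and 57 *Hbb-bs* UMIs and 18, 29 and 57.5 *Hbb-bt* UMIs.

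**Figure D3:**
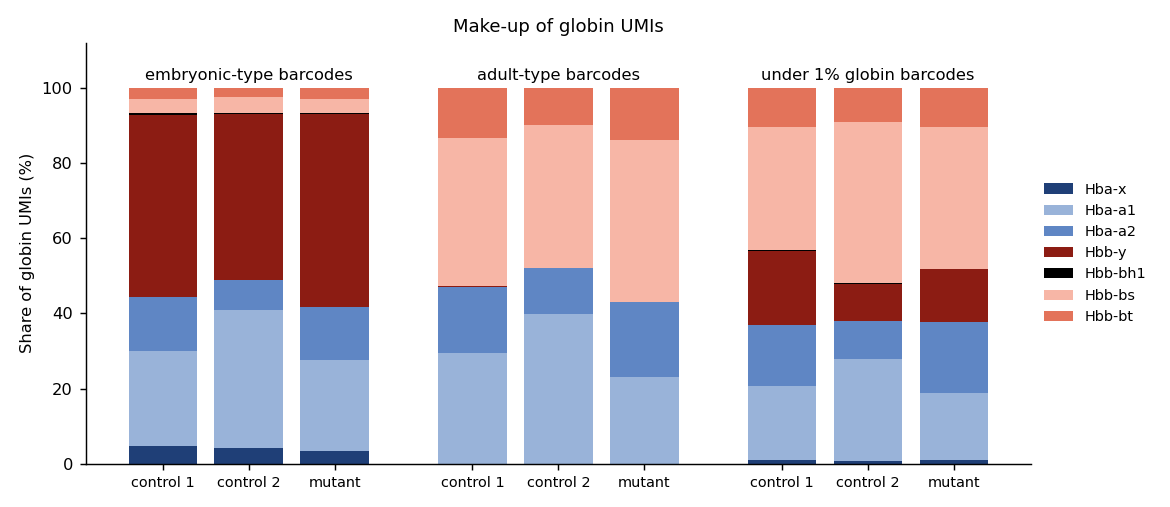
Share of globin UMIs (%, vertical axis, bars from 0 to 100) that each of the 7 genes gave in embryonic-type barcodes, adult-type barcodes and barcodes under 1% globin, for each library. *Hbb-y* gives 44.0 to 51.3% in embryonic-type barcodes and 0.00764 to 0.195% in adult-type ones, and 9.86 to 19.8% in barcodes under 1% globin.

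The adult beta pair was used in other proportions in the embryonic-type barcodes. The summed ratio of *Hbb-bs* to *Hbb-bt* was 1.17 in embryonic-type and 2.98 in adult-type barcodes of control 1, 1.64 and 3.84 in control 2, and 1.24 and 3.12 in the mutant. The ratio between the classes was thus 0.393, 0.427 and 0.399, lower in embryonic-type barcodes in 3 of 3 libraries, with a median of -1.32 on the log2 scale and an SD of 0.06 over the libraries. With the limit of globin-rich at 80% it was 0.399, 0.413 and 0.445. Both classes of a library were counted together, so the gap is a description within libraries and has no test.

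Free RNA in the droplets could add adult beta UMIs to an embryonic-type barcode. Taking the mean *Hbb-y* count of adult-type barcodes (1.94, 0.261 and 1.41 UMIs) as free RNA with the make-up seen in barcodes under 1% globin, it would give 3.22, 1.14 and 3.82 *Hbb-bs* UMIs a barcode. The embryonic-type barcodes held means of 47.5, 122.8 and 86.7. With this amount taken off, the *Hbb-bs* to *Hbb-bt* ratios were 1.12, 1.63 and 1.21. In barcodes under 1% globin this ratio was 3.18, 4.75 and 3.67, above that of embryonic-type barcodes. Taking such a make-up off could therefore only lower the ratio, so that this is no check of its direction. As medians, barcodes under 1% globin held 10, 2 and 1 *Hbb-bs* UMIs, and embryonic-type barcodes 23, 86 and 57. A free part of the size of those medians was not taken off. In the mutant, 1 adult-type barcode held 426 of the 550 *Hbb-y* UMIs. Without the barcode of most *Hbb-y* UMIs in each library, an alternative added after seeing the data, the mean counts were 1.92, 0.247 and 0.319 UMIs and the ratios 1.12, 1.63 and 1.24. Leaving out the 21, 6 and 40 globin-rich barcodes with at least 3 markers of another cell type gave ratios between the classes of 0.401, 0.420 and 0.411. Droplets that hold red cells of both classes were not tested for.

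Single embryonic-type barcodes differed widely in this proportion. Among those with at least 50 *Hbb-bs* and *Hbb-bt* UMIs, the share of *Hbb-bt* in the pair ran from 20 to 80% in control 1 (median 40.3%, SD 15.6, n = 49), from 13.4 to 60.2% in control 2 (31.7%, SD 15.6, n = 17) and from 6.57 to 98.6% in the mutant (46.6%, SD 21.7, n = 122). Counting error alone would give SDs of 5.36, 3.91 and 4.36. Adult-type barcodes had medians of 22.1%, 20.2% and 23.3% with SDs of 5.24, 5.75 and 5.92, where counting error alone would give 3.34, 1.29 and 1.27. The SD was thus 2.92, 4.00 and 4.97 times that of counting error in embryonic-type barcodes and 1.57, 4.44 and 4.65 times in adult-type barcodes. *Hbb-bt* outnumbered *Hbb-bs* in 16 of 49, 3 of 17 and 54 of 122 embryonic-type barcodes and in 0 of 487, 0 of 199 and 0 of 390 adult-type barcodes. These barcodes share a library and are not replicates.

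**Figure D4:**
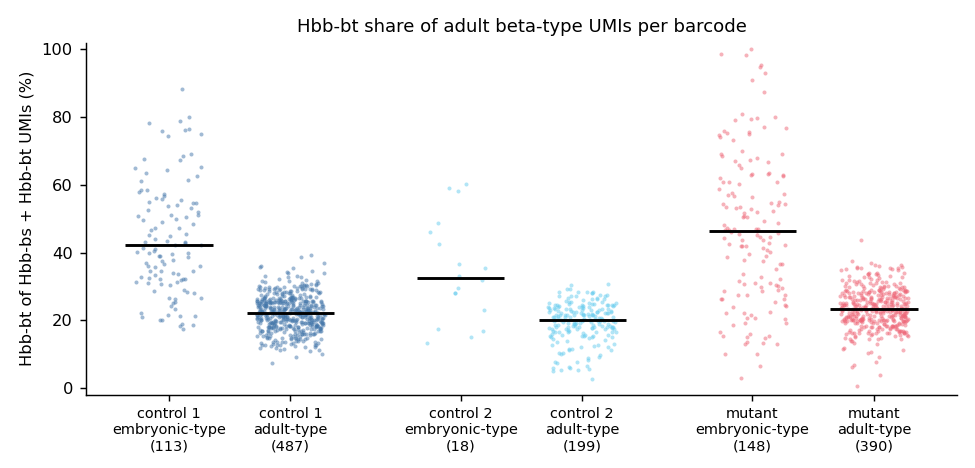
Share of *Hbb-bt* in the *Hbb-bs* and *Hbb-bt* UMIs of each globin-rich barcode with at least 20 such UMIs (%, vertical axis) by library and class; points are barcodes, spread sideways for view, black lines are medians and the number of barcodes is in parentheses. The medians are 42.2%, 32.4% and 46.3% in embryonic-type and 22.1%, 20.2% and 23.3% in adult-type barcodes.

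Within control 1 the make-up of both classes also differed with the globin share of the barcode. Its embryonic-type barcodes at 30 to 60% globin (n = 109) had 22.8% *Hba-x* among alpha-type UMIs and a median alpha to beta ratio of 0.452, against 6.66% and 0.980 in those at 80% or more (n = 18). The adult-type barcodes had *Hba-a1* to *Hba-a2* ratios of 7.86 at 30 to 60% (n = 433) and 1.28 at 80% or more (n = 53). In the embryonic-type barcodes these ratios were 1.65 and 1.79. The *Hbb-bs* to *Hbb-bt* ratios were 3.59 and 2.80 in adult-type barcodes, and 1.26 and 1.12 in embryonic-type barcodes. The median adult-type barcode held 259 globin and 403 other UMIs in the lower range and 6657 and 510 in the upper. Depth moves with these differences, and its part in them was not tested.

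Genes outside the 7 were compared with them by the lowest of the 3 libraries' log2 ratios of CPM in globin-rich over other barcodes. Among the 10 most alike were *Alas2* (7.501), *Hsd3b6* (7.26), *Rec114* (6.40), *Slc4a1* (5.53), *Car2* (5.01), *Ube2l6* (4.44) and *Mkrn1* (3.70). The 7 globins themselves had values from 6.75 for *Hbb-y* to 7.81 for *Hba-a1*. The rule for globin-rich barcodes is made from UMIs of these 7 genes, so that their high values follow from it. Band 3 (*Slc4a1*) and carbonic anhydrase (*Car2*) are known red cell proteins.

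Non-globin genes were also picked by their difference between the classes, with at least 20 UMIs in the higher class of every library. Their ratios are thus the measure of the choice and no separate evidence that the classes differ. Free RNA was not taken off the non-globin levels of either class. *Hsd3b6*, a member of the 3β-hydroxysteroid dehydrogenase family, had 65, 39 and 103 UMIs in embryonic-type barcodes and 4, 4 and 12 in the more numerous adult-type barcodes of control 1, control 2 and the mutant, a level 41.4-fold, 97.4-fold and 27.0-fold higher. It led the genes chosen by the log2 ratio nearest 0 over the 3 libraries, ahead of *Ppp1r15a* (4.29-fold, 24.0-fold and 9.53-fold), a stress-induced phosphatase subunit. *Slc38a2*, an amino acid transporter, was 3.91-fold, 48.7-fold and 21.7-fold higher, from 43, 39 and 138 UMIs against 28, 8 and 20. At a globin share of 80% or more it had 25, 7 and 88 UMIs against 6, 4 and 1. *Fth1* (ferritin heavy chain) rested on the most UMIs, with 8528, 7594 and 9002 CPM against 1969, 2578 and 1979. *Selenow*, a selenoprotein gene, was 2.28-fold, 3.37-fold and 2.61-fold higher.

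In the other direction, *Mkrn1*, a ubiquitin ligase, stood at 655, 768 and 539 CPM in adult-type and 50.8, 38.8 and 73.8 CPM in embryonic-type barcodes. It was 12.9-fold higher in adult-type barcodes of control 1 and 7.30-fold in the mutant. In control 2 its embryonic-type level rested on 3 UMIs, with a log2 difference of -4.31 (95% counting interval -6.59 to -2.75). Another ubiquitin ligase, *March2*, had 113, 135 and 165 UMIs in adult-type and 8, 2 and 12 in embryonic-type barcodes. These were 161, 175 and 114 against 29.1, 25.9 and 26.1 CPM. Scaling to non-globin UMIs moved all log2 ratios by -0.33, -0.14 and -0.56 in control 1, control 2 and the mutant. The genes chosen by the difference between classes had larger ratios, so that none could change direction, and none did.

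Of the heme synthesis list, 3 of 8 genes reached 20 UMIs in the globin-rich barcodes of every library, and all 3 were higher in adult-type barcodes in each library. *Alas2* differed by -3.21, -2.37 and -1.67 (log2, embryonic-type minus adult-type). At a globin share of 80% or more its differences were -1.98, -2.32 and -1.68, so that the size in control 1 depends on the globin share. *Fech*, which adds the iron that completes heme, differed by -2.44, -2.42 and -1.85. *Urod*, an earlier enzyme of the pathway, had 11, 1 and 8 UMIs in embryonic-type and 29, 35 and 50 in adult-type barcodes, or 39.95, 12.9 and 17.4 against 41.4, 45.3 and 34.5 CPM. Its log2 counting intervals took in 0 in each library, at -1.20 to 0.99, -7.15 to 0.76 and -2.28 to 0.099. The difference in *Urod* is thus within counting error. Among the 510 other genes with as many UMIs, 13.3% were higher in adult-type and 37.5% in embryonic-type barcodes in all 3 libraries. These shares count every level under 3 UMIs as 3, which is 38.8 CPM in the embryonic-type barcodes of control 2. With CPM as measured they were 16.9% and 28.4%, and the counts of each list were the same. With the scaling to non-globin UMIs, 169 of the 510 were higher in adult-type and 85 in embryonic-type barcodes, where 68 and 191 had been before it. The more frequent direction of these genes thus reversed with the scaling, while the direction of no list changed. That scaling lowers every ratio, so that it could not reverse a gene higher in adult-type barcodes.

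All 3 counted genes of the 15 for the erythroid membrane and skeleton were higher in adult-type barcodes in each library. *Slc4a1* had 2, 0 and 8 UMIs in embryonic-type and 23, 45 and 30 in adult-type barcodes. These were 7.26, 0 and 17.4 against 32.8, 58.3 and 20.7 CPM, with a log2 counting interval of -1.59 to 0.91 in the mutant. *Epb41*, a skeleton protein, had 5, 1 and 14 UMIs against 30, 88 and 99. Its levels were 18.2, 12.9 and 30.4 against 42.8, 114 and 68.3 CPM, with an interval of -2.96 to 0.14 in control 1. For chaperones, iron and gas handling, 14 of 16 genes were matched and 8 counted, of which 6 were higher in adult-type and 2 in embryonic-type barcodes in all 3 libraries. *Slc25a37*, the mitochondrial iron importer, had 4, 2 and 8 UMIs against 93, 111 and 228. *Bpgm*, which makes the metabolite that lowers the oxygen affinity of hemoglobin, had 18, 3 and 85 UMIs against 479, 212 and 421. These were 65.4, 38.8 and 185 against 683, 274 and 290 CPM, so that the difference was smallest in the mutant, at -0.65 on the log2 scale. *Fth1* and *Ftl1*, the ferritin chains, went the other way, *Ftl1* by 1.11, 0.87 and 0.96 on the log2 scale. At a globin share of 80% or more, 19 of the 20 genes that the lists and the choice by class select had the same direction in each library. The exception was *Slc4a1* in the mutant, with 4 embryonic-type and 13 adult-type UMIs (12.4 and 11.5 CPM). These barcodes are part of those by which the choice by class was made, so that this is no separate check.

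None of the 12 erythroid and globin switching factors, *Klf1* and *Bcl11a* among them, had 20 UMIs in the globin-rich barcodes of every library, so that their levels beside the globins could not be compared at this depth. The same held for the 6 matched genes of 8 on the list of other globins. The θ-globin genes *Hbq1a* and *Hbq1b*, named after their values were seen, had 11, 4 and 47 and 13, 8 and 26 UMIs in the globin-rich barcodes, and at most 0.139 CPM in the other barcodes.

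The embryonic genes gave 13.96% of the globin UMIs of globin-rich barcodes in control 1 (13.88 to 14.04), 4.36% (4.31 to 4.40) in control 2 and 12.5% (12.4 to 12.5) in the mutant. The mutant lay between the controls, at 0.68 above their mean on the log2 scale with a gap of 1.68 between them. Without the barcode sequences found in more than 1 library the shares were 13.76%, 3.66% and 12.6%. Embryonic-type barcodes were 20.9% (17.8 to 24.4), 10.4% (6.68 to 15.1) and 28.6% (24.8 to 32.6) of the globin-rich barcodes. The mutant was above both controls by this count, by 0.96 with a gap of 1.02 between the controls, so that it did not pass the gap. It did without the globin-rich barcodes that had at least 3 markers of another type, at 19.5%, 10.6% and 29.2% with a difference of 1.02. At a globin share of 80% or more the shares were 25.4%, 7.77% and 26.5%.

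The ratio of alpha-type to beta-type UMIs was 0.865 and 1.08 in the controls and 0.748 in the mutant. The mutant was below both controls, and the difference of -0.37 passed the gap of 0.32 between them. In embryonic-type barcodes the ratio was 0.796, 0.961 and 0.715, and in adult-type barcodes 0.890, 1.09 and 0.758. At 80% globin or more it was 0.972, 1.07 and 0.750. As a mean over barcodes it was 0.689, 1.21 and 0.768, with the mutant between the controls. The sums rest mostly on the 4 genes whose levels are uncertain because of identical stretches. In the globin-rich barcodes the *Hba-a1* to *Hba-a2* ratio was 1.70, 3.34 and 1.25, and its part in the difference was not tested. With 1 mutant library, past the gap describes these libraries and is not a test.

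Taken gene by gene in the globin-rich barcodes, 2 of the 7 globins were higher in the mutant than in both controls by more than the gap between the controls, and none was lower. Of all 1751 genes that reached 10 CPM either in the mutant or in each control, 2.63% were called higher and 8.51% lower in this way, 11.1% in all. The 2 were *Hba-a2*, at 156581 CPM against 111629 and 104666, and *Hbb-bt*, at 95317 against 71004 and 81190. Each shares long stretches with its neighbour in the locus, and the neighbours *Hba-a1* (195547 against 190244 and 349102) and *Hbb-bs* (286297 against 201948 and 307194) lay between the controls. Globin was 66.8%, 88.05% and 83.8% of the UMIs of these barcodes. As shares of globin UMIs neither gene passed the gap, with *Hba-a2* at 16.7%, 11.9% and 18.7% and *Hbb-bt* at 10.6%, 9.22% and 11.4%. By shares *Hba-a1* did, at 28.5%, 39.6% and 23.3%, below both controls.

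Over all barcodes, the 7 globins together stood at 32710, 28068 and 26731 CPM. The mutant was 0.18 below the mean of the controls on the log2 scale, within their gap of 0.22. Without the globin-rich barcodes that had 3 markers of another type the levels were 31057, 26907 and 24336 CPM, and the difference of -0.25 passed the gap. No globin was called higher and 2 of 7 were called lower, *Hba-a1* (9023, 11020 and 6235 CPM) and *Hbb-bs* (9996, 9869 and 9140 CPM). By the same rule 13.2% of 8743 genes were called higher and 25.3% lower, 38.5% in all, so that 2 of 7 is near the background.

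Outside the globin-rich barcodes, globin was at 4048, 1207 and 1554 CPM. Of the 6 globins that passed the CPM limit there, none was called in either direction, beside 13.1% of 8848 genes called higher, 26% lower and 39.1% either way. These totals include 118, 4 and 49 barcodes with a globin share of 1 to 30%. In barcodes under 1% globin the level was 3570 (95% Poisson interval 3545 to 3596), 900.0 (889 to 911) and 399.6 (395 to 405) CPM.

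The mutant was thus 4.49-fold below the geometric mean of the controls in barcodes under 1% globin, past their gap, with a 3.97-fold difference between the controls themselves. Of 5 globins past the CPM limit, *Hba-a1* (702, 245 and 70.9 CPM) and *Hbb-bs* (1175, 387 and 152 CPM) were called lower and none higher. Among 8850 genes, 13.3% were called higher, 26% lower and 39.4% either way. Both genes were highest in control 1 and lowest in the mutant.

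This low globin level was much the same in most cell classes of a library. Barcodes were sorted into marker classes by their highest marker score, and across 9 classes the level in barcodes under 1% globin ran from 2942 to 3852 CPM in control 1, from 765 to 983 in control 2 and from 307 to 422 in the mutant. The highest class was thus 1.31-fold, 1.28-fold and 1.37-fold above the lowest. Barcodes under 1% globin that met no class are not in these ranges and stood at 3545, 953 and 539 CPM, in the mutant above all 9 classes. Epithelial, endothelial and myogenic classes, which should lack globin, stood at 3223, 3009 and 3240 CPM in control 1, 824, 825 and 767 in control 2, and 350, 335 and 317 in the mutant. A class with neutrophil markers was found in control 1 alone at 5 barcodes or more (n = 67), and its 30 barcodes under 1% globin had 6596 CPM (6083 to 7141).

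**Figure D5:**
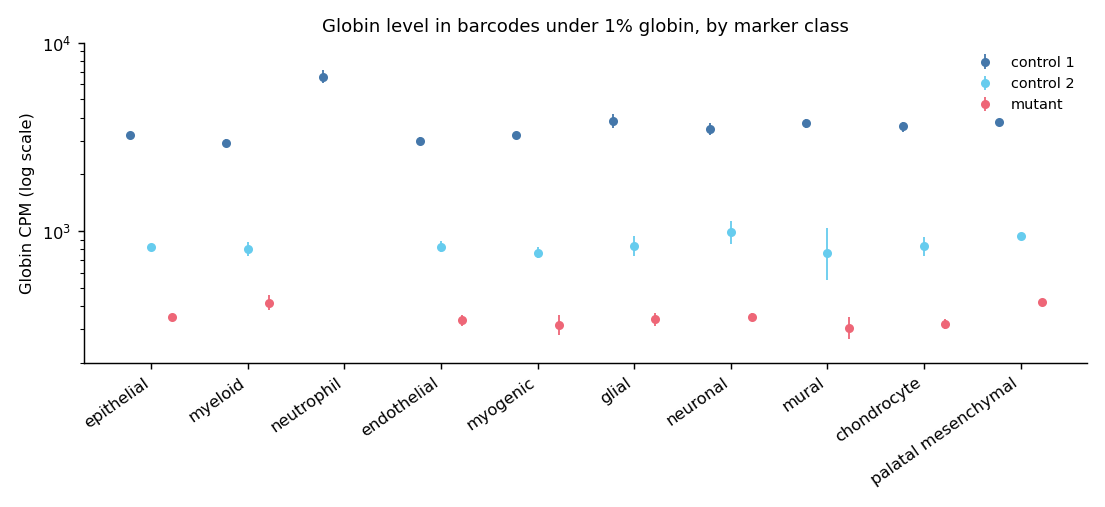
Globin CPM (log scale, vertical axis) in barcodes under 1% globin of each marker class, by library; bars are 95% Poisson intervals, which cover counting error only. Classes lie close together within a library, from 2942 to 3852 CPM in control 1 without the neutrophil class, 765 to 983 in control 2 and 307 to 422 in the mutant.

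A few barcodes raised the level of some classes when those over 1% globin were kept. The mutant endothelial class went from 335 to 5226 CPM with 10 such barcodes of 294, and the mutant myogenic class from 317 to 4348 with 1 of 106. In control 2, 1 of 98 barcodes took the endothelial class from 825 to 4338 CPM. No level of globin in a class was read as expression, since the classes share it.

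The embryonic share of this low-level globin lay between those of the classes of red cell barcodes. Its summed alpha to beta ratio of 0.585, 0.615 and 0.605 lay below the summed ratios of both classes. In control 1 at 30 to 60% globin, the median ratios of embryonic-type and adult-type barcodes were 0.452 and 0.675, on either side of 0.585. Embryonic genes gave 20.9%, 10.7% and 15.0% of the globin UMIs of barcodes under 1% globin. These were 1.499-fold, 2.45-fold and 1.20-fold the shares in the globin-rich barcodes, higher in 3 of 3 libraries. *Hbb-y* alone gave 19.8%, 9.86% and 14%. Across the classes other than the neutrophil one with at least 100 globin UMIs, the embryonic share ran from 19.8 to 21.9% in control 1, from 8.42 to 16.7% in control 2 and from 12.0 to 17.8% in the mutant.

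The share of barcodes with a *Hbb-y* UMI shows how far this level reaches. It was 96.3%, 41.0% and 29.5% of barcodes under 1% globin in control 1, control 2 and the mutant, beside 82.5%, 20.1% and 19.0% of the adult-type red cell barcodes. Median depths were 8256, 5245 and 5188 UMIs in the former and 677, 3242 and 3172 in the latter. Per UMI, *Hbb-y* stood at 706, 88.7 and 55.9 CPM in barcodes under 1% globin and at 1345, 67.3 and 379 CPM in adult-type barcodes. The 379 CPM of the mutant rests mostly on 1 barcode, which held 426 of the 550 *Hbb-y* UMIs. *Hbb-bh1* was counted in 1.63%, 0.312% and 0.173% of barcodes under 1% globin.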

How the data were processed

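Single cells of E14.5 soft palate were profiled with the 10x Genomics 3′ v2 kit after TrypLE digestion. The authors deposited 1 matrix of UMI counts for each library, raw and by gene and barcode, made with Cell Ranger (4.0.0 per the file headers and the protocol, 3.1.0 in the submitters' processing notes, which give the build as mm10). All deposited barcodes were used, without doublet removal.

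The members and gene lists were chosen with earlier results of these data known. UMIs of the 7 genes were summed over barcodes with at least 30% globin UMIs, over those under 30%, and over those under 1%. Other barcodes with at least 500 genes and at most 10% mitochondrial UMIs took the class with the highest mean standardized marker level, where at least 3 of its markers were detected. Before logarithms, every count under 3 UMIs was raised to 3; counts are printed instead where this touched a named gene. With 1 mutant library no test was made: the log2 ratio of the mutant to the mean of the controls was set beside the gap between them, and a gene was called past the gap when the mutant was above both or below both and differed by more than the gap. This calling rule was tested on simulated data.

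Other genes were named by 3 rules. These were the 10 with the largest lowest-library ratio of globin-rich over other barcodes, genes of fixed lists with at least 20 UMIs in the globin-rich barcodes of every library, and the 5 most different each way between embryonic-type and adult-type barcodes by the ratio nearest 0. Some genes that these rules select are not reported here. Gene positions come from GENCODE vM21 and promoters from RefSeq. Python 3.11.15, numpy, scipy and Biopython were used, with TMM factors from edgeR as an alternative; the other alternatives changed the globin limit, the barcode filter, doublets, shared barcodes, weighting and the controls.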

Additional observations from a re-analysis of the deposited data

How the results depend on the processing

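Differences are log2 of the mutant over the mean of the controls. Of 63 alternative values, 55 moved by less than the SD of the controls (of the libraries for the *Hbb-bs* to *Hbb-bt* ratio) or, for the count of genes called, stayed within 1.5 times, and 8 moved further. Leaving out a control always moves a mutant difference by less than the SD of the controls. Those alternatives thus could not be among the 8, even where the sign changed. With at least 500 genes and at most 10% mitochondrial UMIs, only 60, 15 and 53 globin-rich barcodes were left. The embryonic share then moved from 0.68 to 4.32, since control 2 kept no embryonic-type barcode, and total globin CPM from -0.18 to -0.62. The *Hbb-bs* to *Hbb-bt* ratio of embryonic-type over adult-type barcodes moved from -1.32 to -1.53 over the 2 libraries that gave it, and the embryonic-type share could not be given. As a mean over barcodes, total globin CPM moved to -0.36. Globin CPM outside the globin-rich barcodes, -0.51 at the 30% limit, was -1.84 with a limit of 10% and -2.17 in barcodes under 1% globin. The share of globin-rich barcodes moved from -0.80 to 0.65 with a limit of 50%. The number of genes called over all barcodes rose from 3369 to 13149 with no filter other than 1 UMI. Without control replicate 1 or 2, the embryonic share was 1.52 and -0.16, the share of globin-rich barcodes 0.20 and -1.80, and globin outside them 0.36 and -1.38, so that each control decides the direction. No paired analysis was possible with 1 mutant library, whose label also carries no replicate number. The limit of 80% and all alternatives for the embryonic-type share and the *Hbb-bs* to *Hbb-bt* ratio were chosen after seeing the data, as were the directions from CPM as measured and the shares of globin UMIs set against the controls. Counting error is small beside the difference between the controls in the summed shares and CPM given, and the number of libraries limits the comparison.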
